A study of Mus musculus with 8 samples.

Results

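The alpha and beta crystallins were examined through all probe sets that the platform annotation assigns to Cryaa, Cryab, Cryba1, Cryba2, Cryba4, Crybb1, Crybb2 or Crybb3 alone. These are 8 genes with 10 probe sets, out of 18193 genes and 45037 probe sets measured. The family was measured in mouse retina on 8 oligonucleotide arrays, 1 array per sample. Nxnl1, the gene under study, is active in photoreceptors and codes for a thioredoxin-related trophic factor of cones. The labels give 3 arrays as wild type (wt/wt), 2 as heterozygous (ko/wt) and 3 as homozygous for the Nxnl1 knockout (ko/ko). Every sample was retina taken at postnatal day 40 from the strain labelled BALB/c AJ, with no treatment. The retinal pigment epithelium is given as dissected away. The labels do not say how the knockout allele was made or whether tissue was pooled. They do not tie the arrays to separate mice either, so p-values reflect the spread from sample to sample alone, and that spread may be technical.

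Crystallins are the main soluble proteins of the lens. Cryaa and Cryab encode the alpha crystallins, small heat shock proteins that hold unfolding proteins in solution. Beta crystallins, divided into acidic (Cryba1, Cryba2, Cryba4) and basic (Crybb1, Crybb2, Crybb3) subunits, share with the gamma crystallins a compact fold of Greek key motifs and assemble into oligomers that keep the lens clear. Outside the lens, Cryab is widely made in muscle, heart and glia. In the retina, crystallin transcripts have been described after light damage, injury and in degeneration, and lens tissue left at dissection also carries them.

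Transcription of lens crystallins depends on Maf factors, which bind DNA elements containing the half-site TGCTGA. RefSeq promoter sequences (assembly GRCm38.p6), reaching from 250 bases before to 50 after the gene start, were matched for Cryaa, Cryba1, Cryba2, Cryba4, Crybb1, Crybb2 and Crybb3. Those of 4 genes are shown because they hold the half-site on the gene's own strand. Each shows the 150 bases just before the start, 5′ to 3′ on the strand of the gene. TGCTGA and TATAAA (the pattern of a TATA box) are in capitals.
Cryaa, chr17:31677781-31677930, plus strand: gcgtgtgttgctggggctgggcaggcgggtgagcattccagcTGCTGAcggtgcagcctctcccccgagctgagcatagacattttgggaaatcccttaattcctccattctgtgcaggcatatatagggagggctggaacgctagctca
Cryba1, chr11:77725294-77725443, minus strand: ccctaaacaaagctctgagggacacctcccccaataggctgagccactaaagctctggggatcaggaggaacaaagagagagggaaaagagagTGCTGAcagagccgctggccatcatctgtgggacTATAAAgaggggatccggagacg
Cryba4, chr5:112252519-112252668, minus strand: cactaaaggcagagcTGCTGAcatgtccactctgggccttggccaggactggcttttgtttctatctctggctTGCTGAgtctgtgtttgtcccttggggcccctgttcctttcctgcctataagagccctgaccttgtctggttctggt
Crybb1, chr5:112255670-112255819, plus strand: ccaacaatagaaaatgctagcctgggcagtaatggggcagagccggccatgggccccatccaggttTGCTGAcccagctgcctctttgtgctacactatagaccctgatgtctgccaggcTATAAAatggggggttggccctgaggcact

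With both strands searched, TGCTGA occurred in 6 of the 7 promoters, all but that of Crybb2, and in 19.48% of the 32851 RefSeq promoters of the same length. Cryba4 held it at 3 places, of which the one farthest upstream lies outside the stretch shown. In Cryba1 it lay from base -57 to -52 and in Crybb1 from base -84 to -79, where -1 is the base just before the start. TATAAA occurred in 3 of the 7 (Cryba1, Cryba2 and Crybb1) and in 13.62% of all promoters. It lay from base -23 to -18 in Cryba1 and from base -30 to -25 in Crybb1. In Cryba2 it began at base -3 and ran across the gene start, which is not the place of a TATA box. Of the patterns for heat shock elements, GAANNTTC was found in 0 of the 7, against 7.86% of all promoters, and TTCNNGAA in 1 (Cryba1, outside the stretch shown), against 8.52%. TTCNNNGAA, the pattern bound by STAT factors, was found in 0 of the 7, against 8.3%. GGGCGG, the GC box, was also found in 0 of the 7, against 35.66%. A match describes the letters in this window and is not evidence of binding.

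The genes sit on several chromosomes. Cryba4 and Crybb1 are neighbours on chromosome 5, on opposite strands, and their annotated extents overlap. Crybb2 and Crybb3 lie close together elsewhere on chromosome 5. Cryaa is on chromosome 17, Cryab on 9, Cryba1 on 11 and Cryba2 on 1. Cryab overlaps Hspb2, which encodes another small heat shock protein.

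On 2 arrays Nxnl1 went against the label. On its brighter probe set Nxnl1 read 9.22, 8.87 and 8.65 in wild type. Homozygous arrays 1 to 3 gave 6.13, 8.76 and 6.13, and heterozygous arrays 8.65 and 6.75. The array labelled homozygous 2 thus read in the wild-type range and the one labelled heterozygous 2 well below the other heterozygous array. Arrays are named by their labels throughout. All values are log2 expression from the RMA table, where a difference of 1 is a factor of 2 in signal. The markers of rods averaged between 12.66 and 12.91 on every array, so all samples carried abundant photoreceptor RNA. Arrays correlated pairwise at 0.979 to 0.996 over all probe sets.

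The crystallins split the arrays in a way that crosses the genotype labels. All 8 genes had the same 4 highest arrays: wild-type 1, heterozygous 2, homozygous 1 and homozygous 3. Their 4 lowest were therefore also the same, namely wild-type 2 and 3, heterozygous 1 and homozygous 2. The gap between the 4th and the 5th array in the order ran from 0.64 (Crybb3) to 2.37 (Cryba1). Among all 18193 genes, 1554 (8.54%) had these 4 arrays on top. Within each of the 3 genotype groups the members thus held both a high and a low array.

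Cryaa, the alpha subunit made chiefly in the lens, read 9.34, 7.09 and 5.77 on wild-type arrays 1 to 3. It read 6.12 and 10.44 on heterozygous arrays 1 and 2, and 11.72, 5.45 and 10.27 on homozygous arrays 1 to 3. Both the highest and the lowest of the 8 values were on arrays labelled homozygous, 6.27 apart, a factor of 77.0. The homozygous mean was 9.15 ± 3.28 (SD, n = 3) and the wild-type mean 7.40 ± 1.81 (SD, n = 3), and the groups overlapped.

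Cryab, the alpha subunit made in many tissues, read 10.35, 9.53 and 9.03 on wild-type arrays 1 to 3, 9.01 and 10.59 on heterozygous 1 and 2, and 11.76, 9.29 and 10.71 on homozygous 1 to 3 on its brightest probe set. Its floor was high, since no array read below 9.01, and its range of 2.76 was less than that of Cryaa. A second probe set had 9.69, 9.22 and 9.08, then 9.03 and 10.45, then 11.29, 9.35 and 10.34 in the same order of groups, with the same 4 arrays on top. The third lay between 3.62 and 4.01 on all arrays, below the lower quartile of all values (4.39), and put the arrays in another order.

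Cryba1, which encodes the beta A3 and A1 subunits from 1 transcript, had the widest range of any of the 18193 genes. It read 9.42, 6.94 and 4.93 on wild-type arrays 1 to 3, 5.57 and 9.75 on heterozygous 1 and 2, and 10.98, 4.32 and 9.31 on homozygous 1 to 3. Between the arrays labelled homozygous 1 and homozygous 2 it differed by 6.65. The lowest of its wild-type values, 4.93, and its lowest homozygous value, 4.32, both lay near the lower quartile of the whole table.

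Cryba2, another acidic subunit, read 7.91, 6.19 and 5.06 on wild-type arrays 1 to 3, 5.50 and 8.93 on heterozygous 1 and 2, and 10.15, 5.67 and 8.55 on homozygous 1 to 3. Cryba4, the acidic subunit whose gene neighbours Crybb1, read 7.98, 5.56 and 5.02, then 4.90 and 7.42, then 8.98, 4.72 and 6.79. Cryba2 thus had heterozygous 2 above wild-type 1 by about a log2 unit, while Cryba4 had the opposite order.

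Crybb1, a basic subunit with a long N-terminal arm, read 9.29, 7.19 and 6.60 on wild-type arrays 1 to 3, 6.88 and 8.32 on heterozygous 1 and 2, and 10.06, 6.65 and 8.17 on homozygous 1 to 3. Crybb2, the most abundant beta crystallin of the adult lens, read 9.05, 6.81 and 6.80, then 6.13 and 9.26, then 10.71, 6.08 and 9.32. Crybb3 read 7.96, 6.26 and 6.04, then 6.30 and 7.31, then 8.34, 6.18 and 6.94. The array labelled homozygous 1 was the highest of all 8 for each of these 3 basic subunits, as it was for each of the other 5 members.

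**Figure D1:**
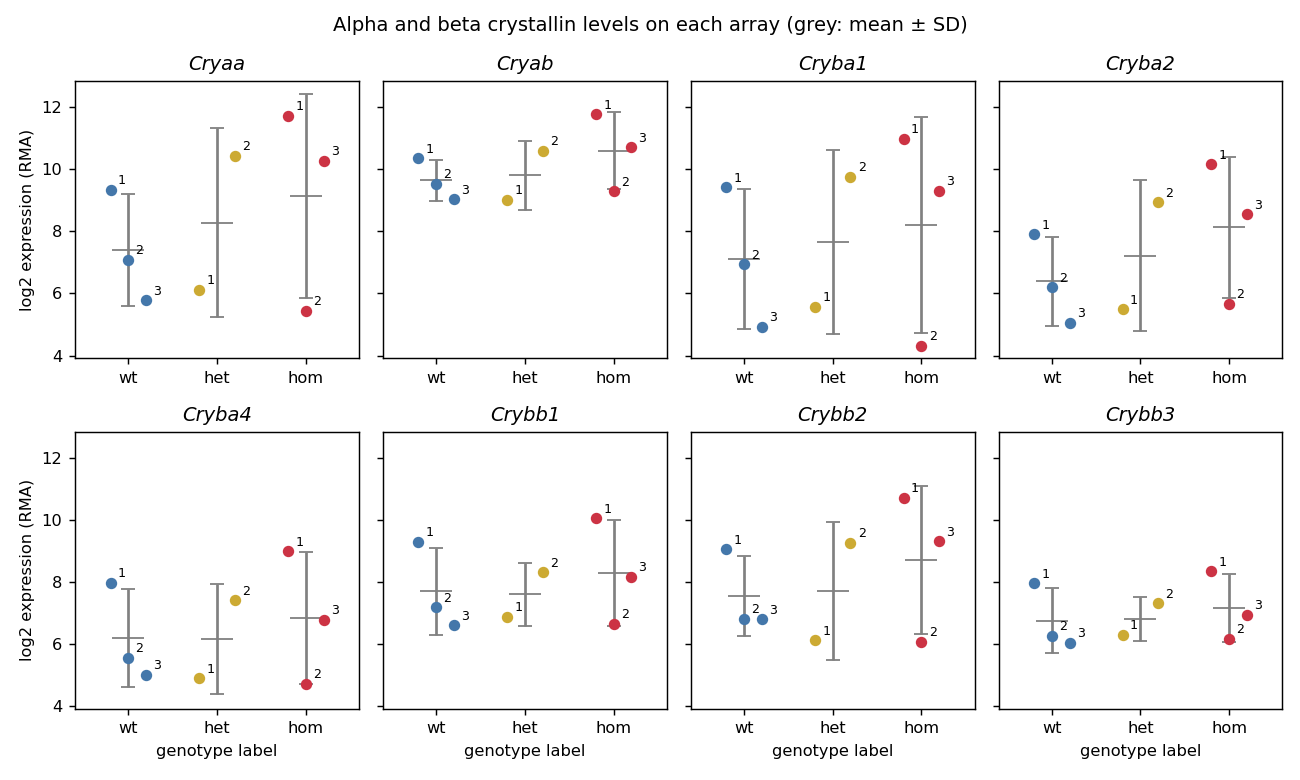
Log2 expression of each of the 8 crystallin genes (vertical axis, brightest probe set) on each array, grouped by genotype label (wt wild type, het heterozygous, hom homozygous) and numbered by replicate; grey bars are the group mean ± SD. In all 8 panels wild-type 1, heterozygous 2, homozygous 1 and homozygous 3 are the 4 highest points, and homozygous 1 is the highest.

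Below the top array the members differed in order. Heterozygous 2 was above wild-type 1 for 5 of the 8 genes (Cryaa, Cryab, Cryba1, Cryba2 and Crybb2) and below it for Cryba4, Crybb1 and Crybb3. Homozygous 3 was above wild-type 1 for 4 (Cryaa, Cryab, Cryba2 and Crybb2). Those 4 include both alpha crystallins and 2 of the 6 beta crystallins. The split follows neither the acidic and basic classes nor the chromosome, since Cryba4, Crybb1, Crybb2 and Crybb3 share chromosome 5 and fall on both sides. No test of these orders was made, since each rests on single arrays.

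The size of these ranges can be set against all genes. The median range over the 8 arrays was 0.41 for the 18193 genes and 4.45 for the 8 members. Only 13 genes (0.0715%) had a range of at least 4, and 5 of them were members: Cryba1 (rank 1), Cryaa (rank 3), Cryba2 (rank 9), Crybb2 (rank 10) and Cryba4 (rank 12). A further 5 of the 13 were gamma crystallins. Eif2s3y, a gene of the Y chromosome, was also among the 13 (rank 6, range 5.82). Crybb1 had a range of 3.45 (rank 16), Cryab of 2.76 (rank 21) and Crybb3 of 2.30 (rank 27), so the least variable member was still among the 100 most variable genes.

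**Figure D2:**
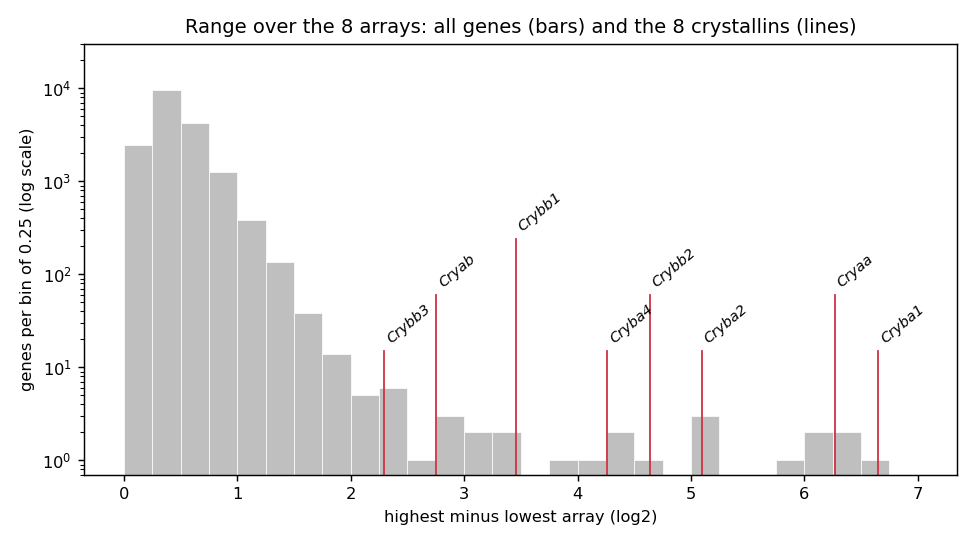
Histogram of the range over the 8 arrays (highest minus lowest log2 value, horizontal axis) for all 18193 genes, with the number of genes per bin on a log scale; red lines mark the 8 crystallins, their heights serving the labels only. All 8 lines lie at 2.30 or more, to the right of the bulk of genes, whose median is 0.41.

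Across the arrays the members moved together. Over the 28 pairs of members, Pearson's r on 8 arrays ran from 0.884 to 0.991 with a median of 0.952. These coefficients describe a shared separation into 4 high and 4 low arrays and carry no p. Each member was also compared with the mean profile of the family, in which every gene is first centred on its own mean. That profile stood at 1.11, -0.86 and -1.65 on wild-type arrays 1 to 3, -1.51 and 1.19 on heterozygous 1 and 2, and 2.53, -1.76 and 0.95 on homozygous 1 to 3. Cryaa followed it most closely (r = 0.99) and Crybb3 least (r = 0.94).

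Among the 595 other genes with a range of at least 1, the one most like the profile was Crygs (r = 0.99 over 8 arrays), which encodes gamma S crystallin. Its range was 6.06. Next came Haus8, a spindle protein gene, S100a6, which encodes a calcium-binding protein, and Ehd4, a gene of endocytic traffic, each at r = 0.98 when rounded to 2 decimals. Haus8 is on chromosome 8, as is Nxnl1, and any part of that in its pattern was not tested. Lrrn1, Ctss (cathepsin S), Lrrtm1 and Cebpb followed at 0.95 to 0.96. Their ranges were far smaller than those of most members, at 1.003 to 2.25. S100a6, for example, read 6.32, 5.70 and 5.39 on wild-type arrays 1 to 3, 5.59 and 6.50 on heterozygous 1 and 2, and 7.43, 5.18 and 6.68 on homozygous 1 to 3.

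The comparison of homozygous with wild-type arrays asks what goes with loss of Nxnl1 in the retina, but these groups also differed in Y-chromosome genes. Eif2s3y differed by 2.92 (SE 1.36), Kdm5d by 2.10 (SE 0.78) and Uty by 1.83 (SE 0.68). Males and females may thus be unevenly spread over the groups. Sex was not in the fit, and its part in the crystallin values was not tested. By limma's moderated test across all probe sets, 0 of the 10 crystallin probe sets passed an adjusted p of 0.05, and 0 of the 45037 probe sets did (0%). At an unadjusted p under 0.05, 411 probe sets were counted, 241 of them higher, but no crystallin. Over genes, 0.621% were higher at that level and 0.22% lower. All 8 genes had a higher mean in the homozygous group, where 60.5% of all genes did. Their median log2 difference was 1.03, beside 0.02 over all genes.

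Cryaa differed by 1.74 (SE 1.74, 3.35-fold, limma adjusted p 0.9999) and Cryba2 by 1.73 (SE 1.28, 3.33-fold). For Crybb2 the difference was 1.15 (SE 1.26) and for Cryba1 1.10 (SE 1.86). These 4 of the 8 exceeded a log2 difference of 1, against 11 of 18193 genes (0.0605%), and 0 of the 8 were below by 1 or more, against 0.011%. Each SE was of the size of the difference itself, and each group held both high and low arrays.

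The other 4 differed by less. Cryab differed by 0.95 (SE 0.65) on its brightest probe set and by 0.998 (SE 0.50) on the second, which had the smallest unadjusted p of the family at 0.082 (limma adjusted p 0.9999). Cryba4 differed by 0.64 (SE 1.18), Crybb1 by 0.60 (SE 0.94) and Crybb3 by 0.40 (SE 0.65). For 0 of the 8 genes did the 2 groups separate without overlap, where 3.25% of all genes separated upward and 1.58% downward. The exact two-sided permutation test on 3 against 3 arrays, which cannot go below 0.1, gave 0.3 for Cryab and Cryba2, 0.5 for Cryaa and 0.6 to 0.8 for the others.

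A member's difference depended on which arrays entered. Without the array labelled homozygous 1 the median of the 8 genes was -0.03, and only 4 of the 8 stayed above 0 (Cryaa, Cryab, Cryba2 and Crybb2), from -0.43 for Cryba4 to 0.72 for Cryba2. Leaving out wild-type 1 moved the median to 1.72, and leaving out wild-type 3 moved it to 0.36. Without the arrays labelled heterozygous 2 and homozygous 2, whose Nxnl1 went against their labels, the median was 2.08. The differences then ran from 0.88 (Crybb3) to 3.59 (Cryaa, SE 1.04). That refit keeps a lone heterozygous array, so only effect sizes are given here. Without homozygous 2 alone, which keeps both heterozygous arrays, the median was also 2.08. In that fit 4 of the 8 genes had an unadjusted limma p under 0.05. These were Cryab (0.025), Cryba2 (0.036), Cryaa (0.037) and Crybb2 (0.049), each with a limma adjusted p of 0.9433. The array left out was the lowest of the homozygous group for all 8 genes.

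**Figure D3:**
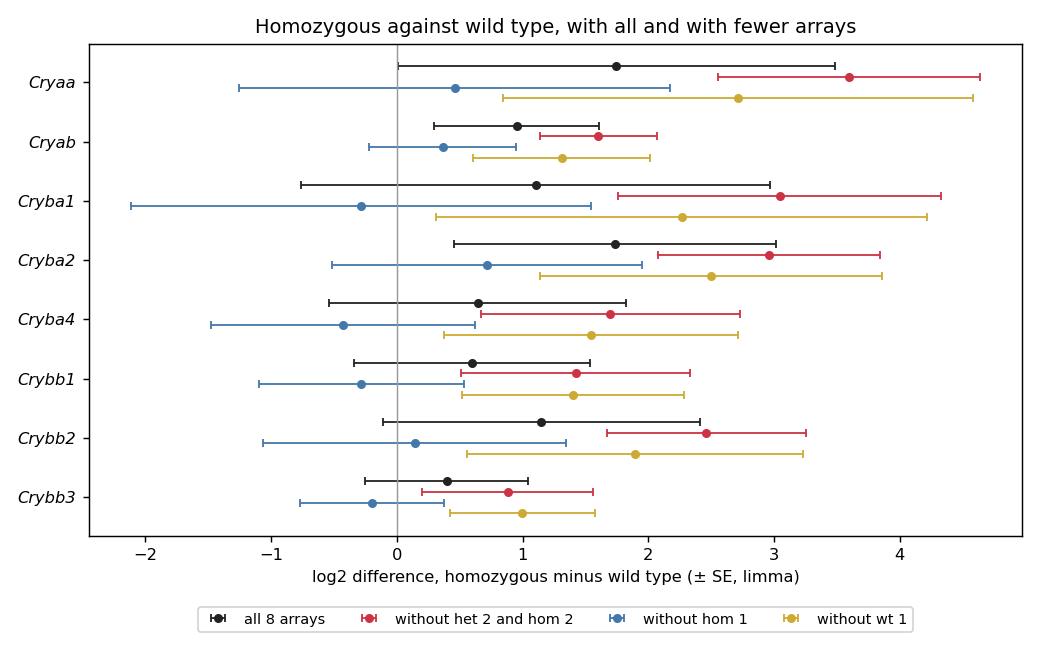
Log2 difference, homozygous minus wild type, ± SE from limma (horizontal axis) for each crystallin with all 8 arrays, without heterozygous 2 and homozygous 2, without homozygous 1, and without wild-type 1. With all arrays the 8 points lie between 0.40 and 1.74, and without homozygous 1 those of Cryba1, Cryba4, Crybb1 and Crybb3 lie below 0.

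Heterozygous and wild-type arrays gave smaller differences. Cryaa differed by 0.88 (SE 1.94), Cryba2 by 0.82 (SE 1.44) and Cryba1 by 0.56 (SE 2.08), whereas Cryba4 (-0.03) and Crybb1 (-0.09) were just below 0. The median was 0.15 beside -0.01 over all genes, and 6 of the 8 lay above 0, where 47.6% of all genes did. The 2 heterozygous arrays differed from each other by 1.01 (Crybb3) to 4.31 (Cryaa), more than any of these group differences. Without heterozygous 2 the median was -1.08, and without heterozygous 1 it was 1.47. Leaving out wild-type 1, 2 or 3 gave 0.88, -0.04 and -0.27. By limma 0 of the 45037 probe sets were called after adjustment (0%), and 516 had an unadjusted p under 0.05. No crystallin gene was among the latter, where 0.451% of all genes lay higher and 0.72% lower. The 8 genes overlapped between these groups, as did all but 6.95% (higher) and 8.03% (lower) of all genes. The dim probe set of Cryab was higher on both heterozygous arrays (3.91 and 4.01) than in wild type (3.62 to 3.84), a difference of 0.22 (SE 0.11). A difference of 1 or more was reached by 0 of the 8, against 0.022% of genes upward and 0.0165% downward.

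Homozygous minus heterozygous differences ran from 0.35 (Crybb3) to 1.01 (Crybb2, SE 1.41), with a median of 0.74 beside 0.03 over all genes. All 8 were above 0, where 63.7% of all genes were. Crybb2 was the only gene of 18193 to exceed 1 (0.0055%). The limma adjusted p was 1.0 for each member, and 0 probe sets passed (0%), with 405 at an unadjusted p under 0.05. None of the 8 genes was in that set, which held 0.632% of all genes upward and 0.176% downward. None separated between the groups, where 7.58% of all genes did upward and 3.42% downward. Without heterozygous 1 the median was -0.57 and without homozygous 1 it was -0.22, whereas it was 2.25 without heterozygous 2 and 1.93 without homozygous 2. The 3 comparisons share arrays, so their signs are not independent of each other.

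The gamma crystallins, lens proteins of the same fold, largely shared the split. Of the 8 listed genes 6 were measured, and since several are close copies, their probe sets may read more than 1 of them. Crygb, Crygd, Crygn and Crygs had the same 4 highest arrays as the members, and Cryga and Crygf did not. For Crygf, the difference lay in heterozygous 1 (5.88) just above homozygous 3 (5.86). What differed between the genes was the order among the high arrays. Crygb read 10.80, 5.83 and 4.67 on wild-type arrays 1 to 3, 4.63 and 7.75 on heterozygous 1 and 2, and 8.50, 4.49 and 6.19 on homozygous 1 to 3. Its highest array was thus wild-type 1, whereas every alpha and beta crystallin was highest on homozygous 1. Crygd likewise read 10.16 on wild-type 1 and 8.46 on homozygous 1. Crygs and Crygn were instead highest on homozygous 1, as the members were. Crygn read 3.77, 3.62 and 3.71 on the wild-type arrays, 3.62 and 3.83 on the heterozygous and 5.10, 3.50 and 4.29 on the homozygous, mostly below the lower quartile of the table.

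Cryga read 8.57 on wild-type 1 and between 3.33 and 4.21 on the other 7 arrays, and Crygf 9.85 there and between 5.63 and 7.16 elsewhere. So on arrays heterozygous 2, homozygous 1 and homozygous 3, where Cryaa read above 10, Cryga stayed within the range of the low arrays or close to it. Wild-type 1 exceeded the mean of the other 2 wild-type arrays by 1.08 (Cryab) to 3.49 (Cryba1) for the alpha and beta members and by 0.11 (Crygn), 4.07 (Crygs) and 4.18 (Crygf) to 5.55 (Crygb) for the gamma genes. Whether wild-type 1 differs from the other high arrays in its kind of lens transcript was not tested, as it is a single array. In homozygous minus wild type, 2 of the 6 gamma genes were above 0 and their median was -0.58.

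**Figure D4:**
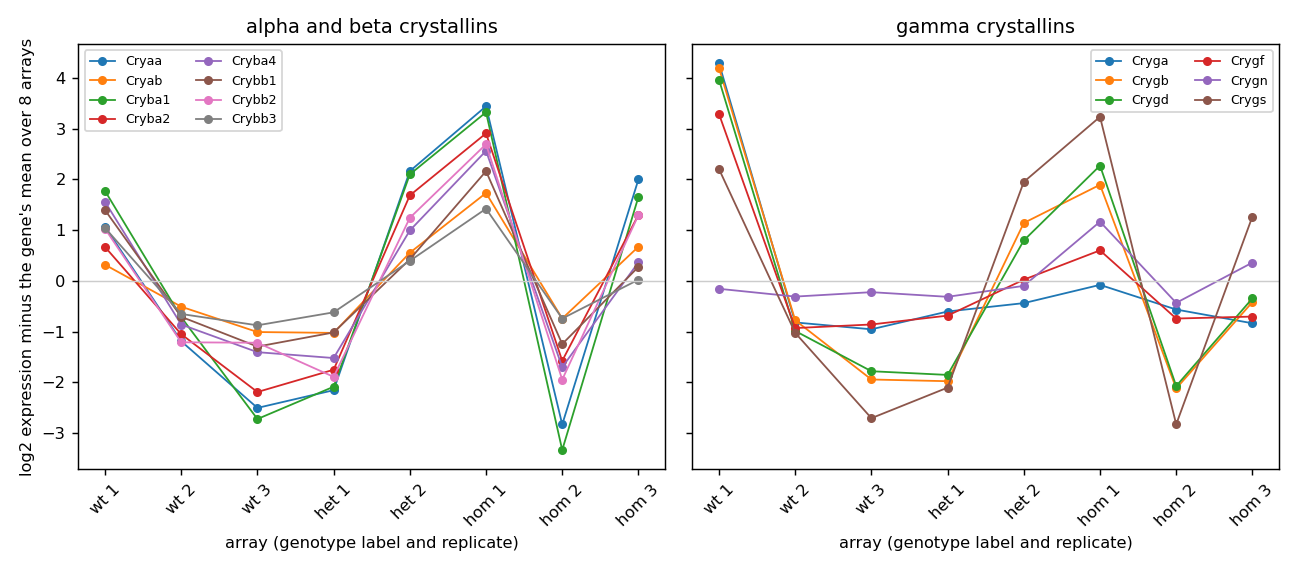
Log2 expression of each gene minus its own mean over the 8 arrays (vertical axis) by array (horizontal axis), for the 8 alpha and beta crystallins on the left and the 6 measured gamma crystallins on the right. The left-hand lines all peak at homozygous 1, whereas Cryga, Crygb, Crygd and Crygf peak at wild-type 1 and Crygs and Crygn at homozygous 1.

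Other lens genes varied little beside the crystallins. Of the 16 listed genes of lens fibres and their membranes 13 were measured, Crygs among them, and 10 of the 13 were above 0 in homozygous minus wild type with a median of 0.09. Without Crygs the other 12 averaged 6.12, 6.002 and 5.93 on wild-type arrays 1 to 3, 5.97 and 6.07 on heterozygous 1 and 2, and 6.32, 6.04 and 6.05 on homozygous 1 to 3. Small as they were, these differences put the crystallins' 4 high arrays on top, homozygous 3 only just above homozygous 2. Singly, 2 of the 13 genes (15.4%), Grifin and Crygs, had those 4 highest arrays, against 8.54% of all genes. Mip, the water channel of lens fibres, lay between 4.82 and 5.17 on its brighter probe set, while its dimmer one read 4.50 on heterozygous 2, 5.34 on homozygous 1 and at most 3.69 elsewhere. Grifin, a lens galectin, read 5.77, 5.09 and 4.92, then 4.93 and 5.51, then 6.51, 5.12 and 5.88, with the same 4 high arrays as the members. Bfsp1, a beaded filament protein, read 5.40 on homozygous 1 and at most 4.52 elsewhere. Lens-cell RNA in the dissected tissue and crystallin transcripts made by retinal cells cannot be told apart in these samples, nor can more cells of a type and more RNA per cell.

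Cryab and Cryaa are also small heat shock proteins, so the rest of that family was examined. Of 7 measured relatives 6 were above 0 in homozygous minus wild type, with a median of 0.09 and none at an unadjusted p under 0.05. Hspb6 came nearest the crystallin pattern, with 10.06, 9.87 and 9.30 on wild-type arrays 1 to 3, 9.46 and 10.30 on heterozygous 1 and 2, and 10.72, 9.76 and 9.99 on homozygous 1 to 3. Its difference was 0.41 (SE 0.32). Hspb2, whose gene overlaps Cryab, stayed between 5.07 and 5.25 on all 8 arrays, where Cryab spanned 2.76. Chaperones that act with this family, such as Hspa1a, Hspa1b and Hspd1, had 9 of 13 above 0 and a median of 0.02. Of these 13 chaperones, 5 (38.5%) had the same 4 highest arrays as the crystallins, against 8.54% of all genes.

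The transcription factors that control crystallin genes did not show ranges of the members' size. Of 16 measured, 10 were above 0 in homozygous minus wild type, with a median of 0.05. Maf, the factor whose half-site was searched in the promoters, lay between 7.98 and 8.50 on all arrays and differed by 0.13 (SE 0.17). It was 1 of 4 genes of this list, with Sox2, Rarb and Tfap2a, whose 4 highest arrays were those of the crystallins. Prox1 lay between 6.96 and 8.32, Pax6 between 10.28 and 10.91, and Hsf4, the heat shock factor of the lens, between 5.02 and 5.30.

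Values that moved with the crystallins on some arrays are given here. The actin control probe sets, whose 5′ value less the 3′ value is a measure of RNA integrity, gave the lowest difference on wild-type 1 (-1.81) and homozygous 1 (-1.74), both high for crystallins, and -1.26 on homozygous 3. On heterozygous 2, also high, it was -0.71, close to the -0.69 of homozygous 2, which was low. With that difference as a covariate, the homozygous minus wild-type median was 0.98, the heterozygous minus wild-type median 1.36 and the homozygous minus heterozygous median -0.47. Without wild-type 1 and homozygous 1, the arrays of lowest actin difference, the medians were 0.80, 0.88 and -0.22.

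Genes of retinal stress and gliosis, 19 measured, averaged 6.88, 6.69 and 6.72 on wild-type arrays 1 to 3, 6.67 and 7.20 on heterozygous 1 and 2, and 7.31, 6.75 and 7.18 on homozygous 1 to 3. Fgf2 and Ccl2 lay below the lower quartile on every array. Of the 19 genes, 5 (26.3%) had the same 4 highest arrays as the crystallins, against 8.54% of all genes. In homozygous minus wild type 18 of the 19 were above 0, with a median of 0.23 and 3 at an unadjusted p under 0.05 (Lif, Lcn2 and Serpina3n), none of them past the adjusted threshold. Edn2, the endothelin made by stressed photoreceptors, read 4.38, 5.06 and 6.03, then 5.36 and 8.18, then 7.63, 4.96 and 8.68. It was high on the 3 arrays of low Nxnl1 and lowest on wild-type 1, an array on which Cryaa read 9.34.

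Of the 4 arrays high in crystallins, 3 (heterozygous 2, homozygous 1 and homozygous 3) were thus those with Nxnl1 at 6.75 or less on its brighter probe set. Wild-type 1 had the highest value of that probe set, 9.22, and the 4 low arrays all read 8.65 or more. On the dimmer Nxnl1 probe set wild-type 1 read 6.21, below the 4 arrays low in crystallins (6.62 to 6.79). It was still above the 3 arrays of low Nxnl1 there (5.47 to 5.56). Whether crystallin levels go with Nxnl1 level across arrays was not tested, because Nxnl1 falls into separate clusters of 5 and 3 arrays.

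**Figure D5:**
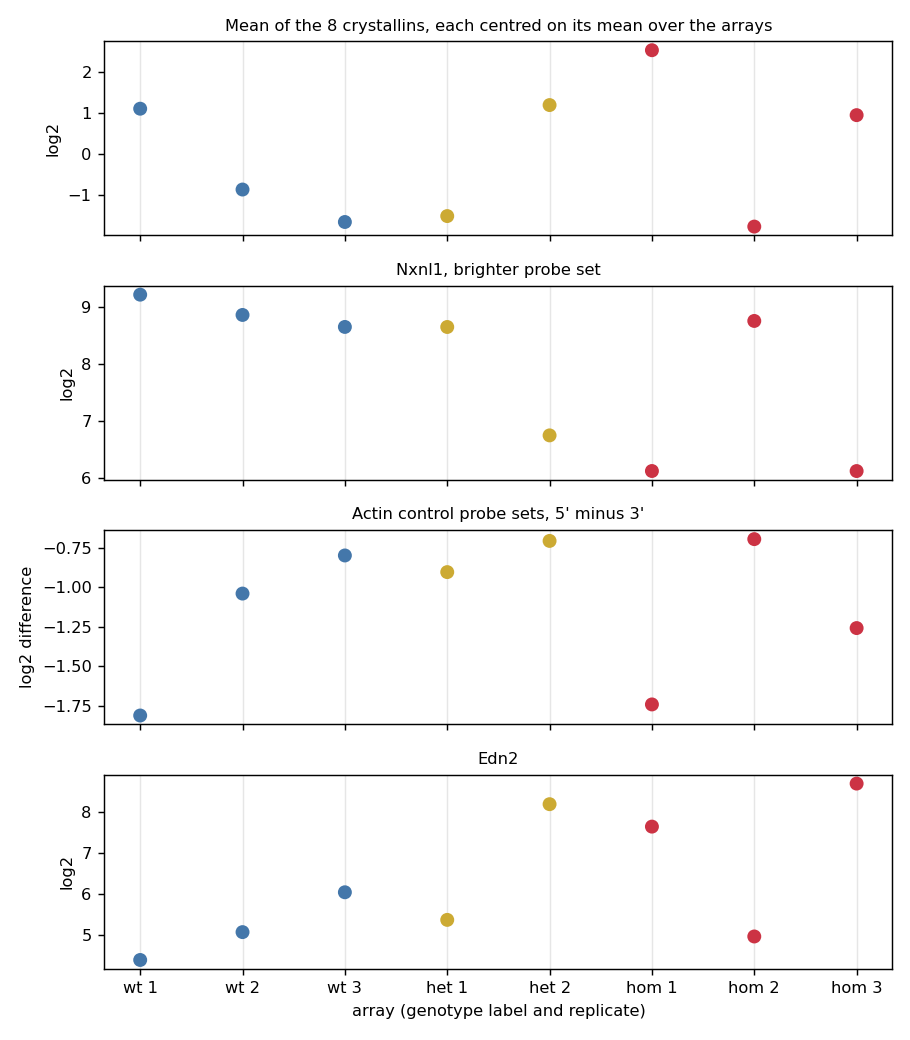
For each array (horizontal axis), from top to bottom, the mean of the 8 crystallins after centring each on its mean, the brighter Nxnl1 probe set, the actin control (5′ less 3′ probe set), and Edn2, all in log2 units. Heterozygous 2, homozygous 1 and homozygous 3 are high for crystallins and Edn2 and low for Nxnl1, whereas wild-type 1 is high for crystallins and Nxnl1 and lowest for Edn2.

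Markers of other tissues and cells differed in their patterns. The microglial mean shared the crystallins' 4 highest arrays, but this was not particular to microglia. The means of the stress and gliosis genes and of the chaperones had the same arrays on top. So did the Müller glial mean and, by small margins, those of the transcription factors and of the lens fibre genes without Crygs. Genes of the pigment epithelium and choroid, 14 measured, averaged 8.84, 8.83 and 8.35 on wild-type arrays 1 to 3, 8.18 and 8.21 on heterozygous 1 and 2, and 8.67, 8.57 and 8.23 on homozygous 1 to 3, with 2 of 14 above 0 in homozygous minus wild type. Rpe65 read 9.16 to 10.48 and Ttr 11.99 to 13.11 over the arrays, although the pigment epithelium is given as dissected away. In heterozygous minus wild type 5 of these 14 genes were lower at an unadjusted limma p under 0.05, against 0.72% of all genes. None passed the adjusted threshold. Genes of the cornea, iris and ciliary body, 13 measured, averaged between 5.60 and 5.85 on all arrays, with 7 of 13 above 0 in homozygous minus wild type. Their highest mean was on wild-type 1, but homozygous 2, low for every crystallin, came second at 5.76. Microglial genes, 12 measured, averaged 6.51, 6.35 and 6.24, then 6.32 and 6.73, then 6.78, 6.39 and 6.53, so that their 4 highest arrays were those of the crystallins. Of these, 11 of 12 were above 0 in homozygous minus wild type, with 1 (Lyz2) at an unadjusted p under 0.05. Taken singly, 5 of the 12 microglial genes (41.7%) had the crystallins' 4 highest arrays, against 8.54% of all genes. For the pigment epithelium and choroid 0 of 14 did, and for the cornea, iris and ciliary body 1 of 13. The part of any of these tissues or cells in the crystallin values was not tested.

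Among the cells of the neural retina, markers of amacrine, horizontal and ganglion cells averaged 9.66, 9.39 and 9.37 on the wild-type arrays, 9.44 and 9.51 on the heterozygous and 9.78, 9.32 and 9.37 on the homozygous. Homozygous 1, wild-type 1 and heterozygous 2, all high for crystallins, were their 3 highest arrays, and homozygous 2 was the lowest. Müller glial markers averaged between 10.78 and 10.93, with the 4 crystallin-high arrays on top, whereas rod markers were lowest on wild-type 1 (12.66) and homozygous 1 (12.75). Cone markers averaged between 9.77 and 9.98. Genes with the same 4 highest arrays as the crystallins numbered 4 of 15 for the amacrine, horizontal and ganglion list, 3 of 12 for Müller glia, 1 of 9 for cones and 0 of 13 for rods. The part of these cells in the crystallin values was not tested either. Rod markers (13 measured), cone markers (9 measured), Müller glial markers (12 measured) and markers of amacrine, horizontal and ganglion cells (15 measured) had median differences of 0.02, 0.07, 0.01 and 0.01 in homozygous minus wild type, with 10, 6, 7 and 10 of their genes above 0. Blood genes, 3 measured, lay near the lower quartile, at means of 4.01 to 4.38.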

How the data were processed

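The members and all gene lists were chosen with earlier results of these data known. The deposited table holds log2 values that, per the submitters' processing notes, the authors made with RMA (background correction, quantile normalization of the arrays and summary of the probes). Its version is not given in the sources used here. A ninth sample named in the design was not analysed here. Quantile normalization makes each level relative to the bulk of transcripts. Of 45101 probe sets, 64 controls were left out. In the platform annotation 34945 of the tested probe sets had 1 symbol, 932 several and 9160 none; symbols were updated through gene identifiers for 34741. A gene is represented by its probe set of highest mean.

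Group means were fitted on all 8 arrays with limma 3.58.1 in R 4.3.3 (eBayes, two-sided, Benjamini-Hochberg over 45037 probe sets, threshold 0.05). SE is limma's moderated standard error. Exact permutation tests used scipy 1.17.1. Named genes were all members, Nxnl1 and the 8 genes most like the mean profile among those of range 1 or more. Up to 4 genes per list were named by smallest unadjusted p. Also named, after their values were seen, were Crygb, Crygd, Mip, Bfsp1, Prox1, Pax6, Hsf4, Fgf2, Ccl2, Sox2, Tfap2a, Cryz and Cryzl1. Eif2s3y, Kdm5d, Uty, Rpe65 and Ttr were added to them in the same way. On simulated data for homozygous against wild type, over 45037 probe sets, the fit found 74% of 100 probe sets with an added difference of 1 and 94% of 100 with one of 2, and 6 of its 174 calls were false. In that simulation the noise was independent between probe sets, each with its own spread, and the changed ones were drawn at random. The crystallins vary far more (median range 4.45, against 0.41 over all genes) and move together. These shares therefore do not carry over to the 8 members. The number of arrays limits the precision. The motif TTCNNGAA and the share of genes with the crystallins' 4 highest arrays were added after the data had been seen. Alternatives changed normalization, filter, variance model, groups fitted, replicate block, probe set rule, actin covariate and arrays.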

Additional observations from a re-analysis of the deposited data

How the results depend on the processing

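Of 432 alternative values for single genes 61 changed sign, and of 54 for the family medians 9 did (1, 4 and 4 in the 3 comparisons as ordered below). Some of these values could not change, as with another variance model or the removal of an array outside the groups compared. The shares are therefore no measure of how stable the signs are. None of the 8 genes passed an adjusted p of 0.05 in any alternative; the smallest limma adjusted p was 0.876. Leaving out 1 array at a time, where a lone heterozygous array is assumed to vary like the other groups, moved the homozygous minus wild-type median from -0.03 to 2.08, the heterozygous minus wild-type median from -1.08 to 1.47 and the homozygous minus heterozygous median from -0.57 to 2.25. For the genes whose sign turned, homozygous minus wild type ran -0.28 to 3.04 (Cryba1), -0.43 to 1.70 (Cryba4), -0.28 to 1.42 (Crybb1) and -0.20 to 0.998 (Crybb3); heterozygous minus wild type ran -1.28 to 3.04 (Cryaa), -0.63 to 0.95 (Cryab), -1.53 to 2.65 (Cryba1), -0.89 to 2.54 (Cryba2), -1.28 to 1.23 (Cryba4), -0.81 to 0.71 (Crybb1), -1.42 to 1.71 (Crybb2) and -0.46 to 0.65 (Crybb3); homozygous minus heterozygous ran -1.29 to 3.02 (Cryaa), -3.7e-05 to 1.58 (Cryab), -1.55 to 2.63 (Cryba1), -0.81 to 2.63 (Cryba2), -0.58 to 1.93 (Cryba4), -0.19 to 1.51 (Crybb1), -0.56 to 2.57 (Crybb2) and -0.25 to 0.85 (Crybb3). Without wild-type 3, limma called 1 probe set in each comparison with wild type, none of those representing the 8 genes. Without heterozygous 2 and homozygous 2 the homozygous minus heterozygous median was 3.42, and heterozygous minus wild type turned to -1.28 (Cryaa), -0.63 (Cryab), -1.53 (Cryba1), -0.89 (Cryba2), -1.42 (Crybb2) and -0.46 (Crybb3). Without wild-type 1 and homozygous 1, it turned to 0.87 (Cryba4) and 0.71 (Crybb1), and homozygous minus heterozygous to -0.42 (Cryaa), -0.84 (Cryba1), -0.10 (Cryba2), -0.40 (Cryba4), -0.19 (Crybb1), -9.4e-05 (Crybb2) and -0.25 (Crybb3). With the actin covariate the same values were 1.30 and 1.05, and -0.94, -1.51, -0.42, -0.71, -0.49, -0.31 and -0.46. The causes were not tested. With the replicate block the medians were 1.03, 0.08 and 0.98, with 0 probe sets called (336, 829 and 1028 at an unadjusted p under 0.05), and Crybb3 turned to -0.18 in heterozygous minus wild type. Deviations of same-numbered arrays from their group means correlated at 0.62 for wild-type 1 with homozygous 1, the arrays of lowest actin difference. The other pairs ran from -0.25 to 0.23, so the number was not taken to pair samples. The other alternatives turned no sign among the 8 genes. Low values, such as Cryba1 at 4.32, lie where array signal and background are hard to separate.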

Other observations

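Some enzymes and binding proteins carry the name crystallin, several of them because other animals use them in the lens. Of the genes so named, Crym, Cryz, Cryzl1 and Cryl1 did not have the members' 4 highest arrays. Crym, a thyroid hormone-binding protein, read 9.33, 9.22 and 9.06 on wild-type arrays 1 to 3, 8.92 and 8.94 on heterozygous 1 and 2, and 9.52, 9.02 and 8.78 on homozygous 1 to 3. Cryz, a quinone reductase, lay between 9.94 and 10.58, and Cryzl1 between 9.68 and 9.93. Cryl1, an enzyme of sugar metabolism, read 6.31, 6.92 and 6.16, then 7.22 and 6.60, then 6.77, 7.21 and 6.53, so that heterozygous 1 and homozygous 2, both low for every alpha and beta crystallin, were its highest arrays. Crygn, a gamma crystallin also on this list and no enzyme, did have those 4 arrays on top, and it was the only 1 of the 8 measured genes to do so. Of the 8 genes 4 were above 0 in homozygous minus wild type, with a median of -0.01, and 0 passed an adjusted p of 0.05 or an unadjusted p of 0.05 by limma.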
